A study of Oryza sativa Japonica Group with 21 samples.

Results

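Rice alpha-amylases were described here across leaf primordia, a green leaf and 5 stages of stamen development. The family was taken as all genes whose symbol or synonym in the array annotation begins with AMY1., AMY2 or AMY3. That gave 6 genes, of which 5 had at least 1 probe set, and 6 probe sets in all among the 57258 tested. The genes were AMY1.3 (synonym RAmy3D, on chromosome 8, with 2 probe sets), AMY1.4 (RAmy3E, chromosome 8), AMY1.1 (AMY1A, chromosome 2), AMY1.5 (amy2A, chromosome 6) and AMY1.2 (RAmy3A, chromosome 9), with 1 probe set each, and AMY1.6 (RAmy3B, chromosome 9), which had none and has no value here. In the annotation AMY1.4 and AMY1.3 are neighbours with 0 protein-coding genes between them, as are AMY1.2 and AMY1.6.

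RNA from rice (Oryza sativa ssp. japonica, cultivar Zhonghua 15) had been hybridised to 21 Affymetrix arrays, 3 biological replicates in each of 7 groups. The groups were the primordium of leaf 3, dissected out of seed embryos after 2 to 3 days in water, the just-expanded leaf 3, and microdissected stamens of stages 2, 3, 4, 5 and 6. No genotype or treatment differed between them; seedlings were raised either in a chamber at 30 ± 2 °C with days of 11 h or in a field, and no label gives the place for a sample. The leaf primordium was thus the only group from a soaked seed embryo, so that organ and the state of the soaked seed cannot be told apart in its comparisons.

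Alpha-amylases cut internal bonds of starch and release sugars from it. In cereal seeds they are made in the aleurone layer and the scutellum of the embryo, and their products feed the growing seedling. In rice, AMY1.1 (RAmy1A) is known as the main gibberellin-induced amylase gene of the aleurone, and AMY1.3 (RAmy3D) as a gene of the germinating embryo and of cultured cells deprived of sugar. Both routes act on the promoters, through the MYB factor GAMYB for gibberellin and through MYBS factors and the kinase SnRK1A for sugar.

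All values below are the deposited log2 RMA values of a probe set, in which 1 unit is a 2-fold difference in signal. Array medians lay between 5.82 and 5.88, and 25% of probe sets on each array lay below a value between 4.29 and 4.40. The table holds no detection call, so whether the lowest values exceeded background was not tested, and levels are compared between samples and not between probe sets. Replicates correlated at 0.981 to 0.995 in leaf primordia, 0.931 to 0.949 in expanded leaves and 0.984 to 0.995 within the stamen stages. A probe set was called when limma's Benjamini-Hochberg adjusted p, over all probe sets, was under 0.05 and the difference at least 2-fold. In these bulk samples fewer cells of a type and less RNA per cell cannot be told apart.

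Labels were set against marker genes. The 6 stamen markers were floral MADS-box genes, among them OsMADS8 and OsMADS16. All 6 were called lower in leaf primordia than in stamens, where 7.59% of all probe sets were. All 7 green leaf markers were called lower in leaf primordia than in expanded leaves, where 9.84% of all probe sets were. Of 11 embryo and seed markers, 6 were higher in leaf primordia than in stamens, where 6.71% of all probe sets were, and 1 was lower, where 7.59% were. EM, a late embryogenesis protein gene, had 13.97 ± 0.08 in leaf primordia and 6.81 ± 0.41 in stamens (mean ± SD, n = 3 and 15). VP1, a seed transcription factor, averaged 8.96 in leaf primordia and 3.23 in stamens. The lower gene was GLB1, a seed globulin, with 7.59 in leaf primordia, 10.75 in expanded leaves and 10.24 in stamens. The endosperm glutelin genes GLUA-1, GLUA-3 and GLUD-1 averaged between 3.34 and 4.11 in every group, whereas GLUA-2, another glutelin, averaged 6.97 in leaf primordia, 10.30 in expanded leaves and 7.41 in stamens.

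The gene with the widest range was AMY1.3, read by its S1_a_at probe set. Its signal was 12.99, 13.25 and 13.56 in the 3 leaf primordium arrays and 4.45, 7.94 and 3.93 in the 3 expanded leaf arrays. All stamen arrays lay below the leaf primordium arrays. They read 12.30, 11.54 and 12.58 at stage 2, 11.67, 10.03 and 11.71 at stage 3, and 10.12, 9.51 and 9.43 at stage 4. Later stamens read 7.55, 8.72 and 9.85 at stage 5, and 6.45, 8.90 and 5.95 at stage 6, so that the lowest arrays of both late stages lay below expanded leaf replicate 2. Every leaf primordium array lay above every array of the other groups, and within the array this probe set stood at or above at least 99.6% of all probe sets. In expanded leaves it stood at or above 17.1% to 76.8%.

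**Figure D1:**
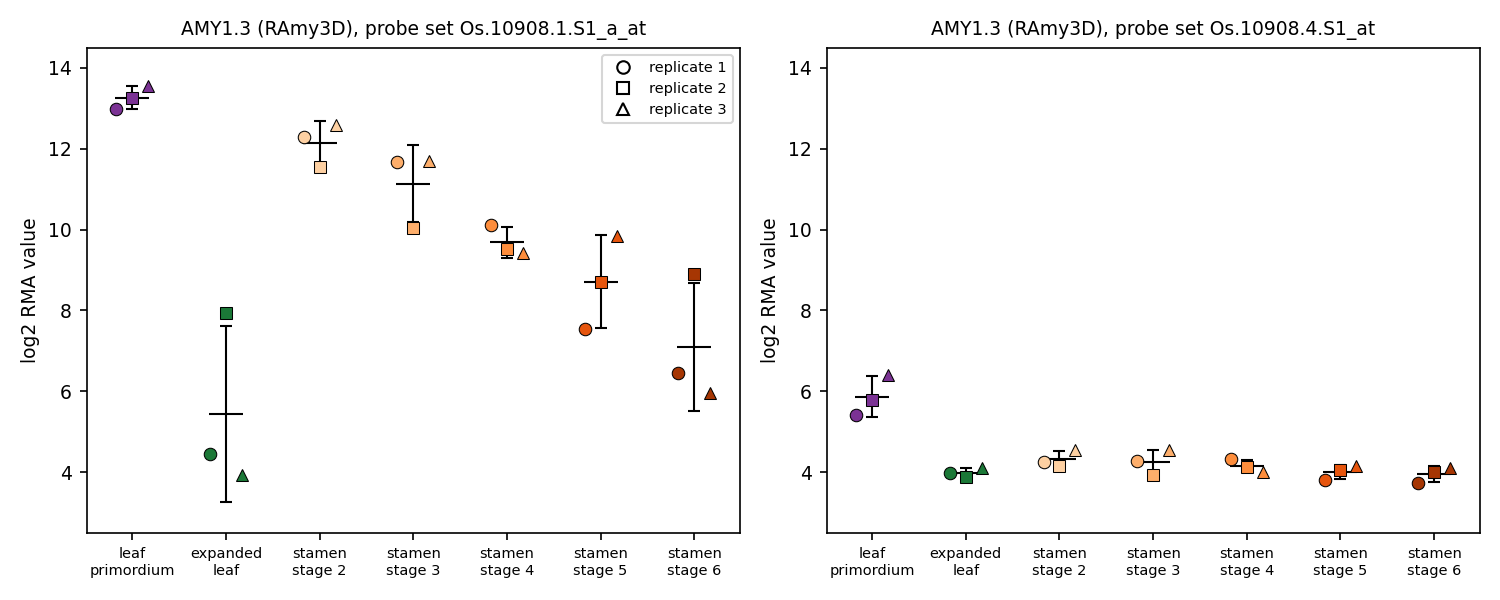
Log2 RMA value of the 2 AMY1.3 probe sets in each of the 21 arrays, by group. Points are arrays, with a symbol for each replicate, long ticks are group means and bars are SD (n = 3). The S1_a_at probe set (left) reaches 12.99 to 13.56 in leaf primordia and its mean is lower at each later stamen stage, while the S1_at probe set (right) reaches 5.42 to 6.41 in leaf primordia and at most 4.54 elsewhere.

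Against the mean of the 5 stamen stages, AMY1.3 was 11.4-fold higher in leaf primordia by this probe set (log2 difference 3.51, SE 0.692, limma adjusted p = 0.000637). Against expanded leaves it was higher in leaf primordia by 7.83 on the log2 scale (SE 0.894, limma adjusted p = 1.4e-06). No fold is given for this pair, since expanded leaf replicates 1 and 3 lay near the low end of the signal range, where background was not tested. Expanded leaves were below the stamen mean by a log2 difference of -4.31 (limma adjusted p = 5.01e-05), with overlapping arrays. The expanded leaf mean carries the widest spread, 5.44 ± 2.18 (SD, n = 3), with replicate 2 at 7.94 and replicates 1 and 3 at 4.45 and 3.93. Without that array the difference of leaf primordia from expanded leaves was 9.08 on the log2 scale, and that of expanded leaves from the stamen mean was -5.56.

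Set against each stage, the leaf primordium was called higher for AMY1.3 from stage 4 on. The log2 difference was 3.58 against stage 4, 4.56 against stage 5 and 6.17 against stage 6 (limma adjusted p = 0.00606, 0.000797 and 4.03e-05). Against stage 2 it was 1.13, with a 95% interval of -0.76 to 3.02, and was not called (limma adjusted p = 0.424). Against stage 3 it was 2.13, with an interval of 0.24 to 4.02, and was not called either (limma adjusted p = 0.101). These calls depended on the spread shared by all 7 groups: fitted on the compared groups alone, the same differences had limma adjusted p = 0.019 against stage 2 and 0.0125 against stage 3. The stage 3 difference was also called with array weights (limma adjusted p = 0.0219) or without expanded leaf replicate 2 (0.0242).

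Along the stamen series, the AMY1.3 mean was lower at each later stage. Means of the S1_a_at probe set were 12.14 ± 0.54, 11.14 ± 0.95, 9.69 ± 0.38, 8.71 ± 1.15 and 7.10 ± 1.58 at stages 2 to 6 (SD, n = 3 each). Stage 6 stood 33-fold below stage 2 (log2 difference -5.04, SE 0.894, limma adjusted p = 0.000902), and no array of stage 6 overlapped stage 2. Over all 5 stages the change passed limma's F test (adjusted p = 0.00617). This was 1 of the 6 alpha-amylase probe sets by either test, where 3.47% of all probe sets were called lower at stage 6 than at stage 2 and 7.23% changed over the stages. The steps between neighbouring stages, compared after the values had been seen, lay between -0.98 and -1.61 on the log2 scale. None was called, arrays of neighbouring stages overlapped at every step, and few probe sets of any kind were called at those steps: 1.55% at stage 3 against 2, 0.00699% at stage 4 against 3, 0.0437% at stage 5 against 4 and 0% at stage 6 against 5.

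RNA integrity controls moved along the same series. The signal difference between 3′ and 5′ probe sets of the actin and GAPDH controls spanned 3.19 to 3.41 in stage 2, 1.45 to 2.69 in stage 3, and 1.27 to 2.16 in stages 4 to 6, on the log2 scale. It was 1.64 to 1.90 in leaf primordia and 1.73 to 3.37 in expanded leaves. In these controls stage 2 overlapped no later stage, so a fit with them as a covariate cannot fully separate stage 2 from RNA integrity. With this 3′ to 5′ difference as a covariate, AMY1.3 at stage 6 was below stage 2 (log2 difference -7.39, limma adjusted p = 0.00201). The leaf primordium then lay below stage 2, at -1.12, and was not called (limma adjusted p = 0.622), so the S1_a_at probe set gives no order of leaf primordium and stage 2.

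Ranked by S1_a_at group means alone, the order was leaf primordium, stamen stages 2, 3, 4, 5 and 6, and expanded leaf, and no difference between neighbours in this order was called. Expanded leaves were called lower than stages 2, 3, 4 and 5, in a comparison added after the values had been seen, with log2 differences of -6.70, -5.70, -4.24 and -3.27. Against stage 6 the difference was -1.66 (limma adjusted p = 0.146), and the arrays of both groups overlapped. Without expanded leaf replicate 2 that difference was -2.91 and was called (limma adjusted p = 0.00424). Fitted on the 2 groups alone, the stage 5 difference was no longer called (limma adjusted p = 0.0912). Among the lists described below, replicate 2 stood apart in some and not in others. The median of the 11 embryo and seed markers was 5.15, 5.72 and 7.12 in expanded leaf replicates 1, 2 and 3, and that of the 7 green leaf markers was 13.87, 12.86 and 12.40. For the gibberellin genes it was 7.19, 8.67 and 6.88, for the starch synthesis genes 9.34, 8.34 and 9.43, and for the sucrose genes 8.35, 6.85 and 8.41. The part of these differences in the AMY1.3 value of replicate 2 was not tested.

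The other AMY1.3 probe set, named S1_at, separated the leaf primordium alone. It read 5.42, 5.78 and 6.41 in leaf primordia, 3.99, 3.87 and 4.10 in expanded leaves, and 3.73 to 4.54 over the 15 stamen arrays, with a median of 4.13. Leaf primordia did not overlap any other group. They were 3.33-fold above the stamen mean (log2 difference 1.74, SE 0.161, limma adjusted p = 1.53e-07) and 3.69-fold above expanded leaves (1.88, limma adjusted p = 9.56e-07). Both folds rest on stamen and expanded leaf values near the low end of the signal range, where background was not tested. The 5 differences from single stages ran from 1.55 at stage 2 to 1.92 at stage 6, and all were called. With the 3′ to 5′ covariate the stage 2 difference was 1.31 (limma adjusted p = 0.00713). The stage means spanned only 0.37 on the log2 scale (F test adjusted p = 0.717), and expanded leaves differed from the stamen mean by -0.15 (limma adjusted p = 0.475). The leaf primordium was thus called above every stage with this probe set and above stages 4, 5 and 6 with S1_a_at, and the decline over stamen stages was called with S1_a_at only.

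AMY1.4 (RAmy3E), the neighbour of AMY1.3 and like it a member of the RAmy3 subfamily, had the same leaf primordium excess on a smaller scale. Its S1_s_at probe set read 5.52, 5.49 and 5.60 in leaf primordia, 4.32, 4.51 and 4.40 in expanded leaves, and 4.09 to 4.54 in stamens. Leaf primordium arrays lay above all arrays of the other groups. Leaf primordia were 2.41-fold above the stamen mean (log2 difference 1.27, SE 0.0868, limma adjusted p = 2.91e-09) and 2.18-fold above expanded leaves (1.12, limma adjusted p = 2.67e-07). Stamen and expanded leaf values lay near the low end of the signal range, where background was not tested, and both folds rest on them. Differences from single stages lay between 1.16 and 1.36, and all 5 were called. By the array's naming, this type of probe set can match transcripts of more than 1 gene, so a share of its signal may belong to a related gene.

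AMY1.1 (AMY1A), the gibberellin-induced gene of the aleurone, stood near the low end of the signal range. It read 3.85, 3.72 and 3.18 in leaf primordia, 2.98, 3.03 and 2.95 in expanded leaves and 2.80 to 3.23 in stamens. The leaf primordium mean was 1.54-fold above the stamen mean (log2 difference 0.62, limma adjusted p = 0.000203) and 1.51-fold above expanded leaves (0.60, limma adjusted p = 0.00249). Both differences passed the p threshold and missed the 2-fold one, so neither was called. Leaf primordium replicate 3 lay within the stamen range, just below the highest stage 5 array.

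AMY1.5 (amy2A) ran the other way and had its highest signal in the green leaf. In all groups AMY1.5 stood near the low end of the signal range, where background was not tested. It read 3.32, 3.13 and 3.18 in leaf primordia, 4.26, 4.44 and 4.37 in expanded leaves and 3.12 to 3.47 in stamens. Leaf primordia were 2.21-fold below expanded leaves (log2 difference -1.15, SE 0.0922, limma adjusted p = 1.67e-08) and differed from the stamen mean by -0.09 (limma adjusted p = 0.366). Expanded leaves were 2.07-fold above the stamen mean (log2 difference 1.05, limma adjusted p = 9.91e-10). After a further quantile normalization that difference was 0.99, under 2-fold, with the groups still apart. Against single stages the expanded leaf was 0.97 to 1.14 higher, which was called at stages 2, 4, 5 and 6 and missed the fold threshold at stage 3.

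AMY1.2 (RAmy3A) showed no called difference in any comparison. It read 4.25, 3.79 and 3.72 in leaf primordia, 3.80, 3.99 and 3.85 in expanded leaves and 3.53 to 3.91 in stamens. Leaf primordia differed from the stamen mean by 0.18 (95% interval -0.02 to 0.39) and from expanded leaves by 0.04 (-0.22 to 0.30). A 2-fold change in signal lies outside both intervals. All arrays read AMY1.2 near the low end of the signal range, where background was not tested. The intervals thus cannot exclude a change in transcript that the probe set did not register.

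**Figure D2:**
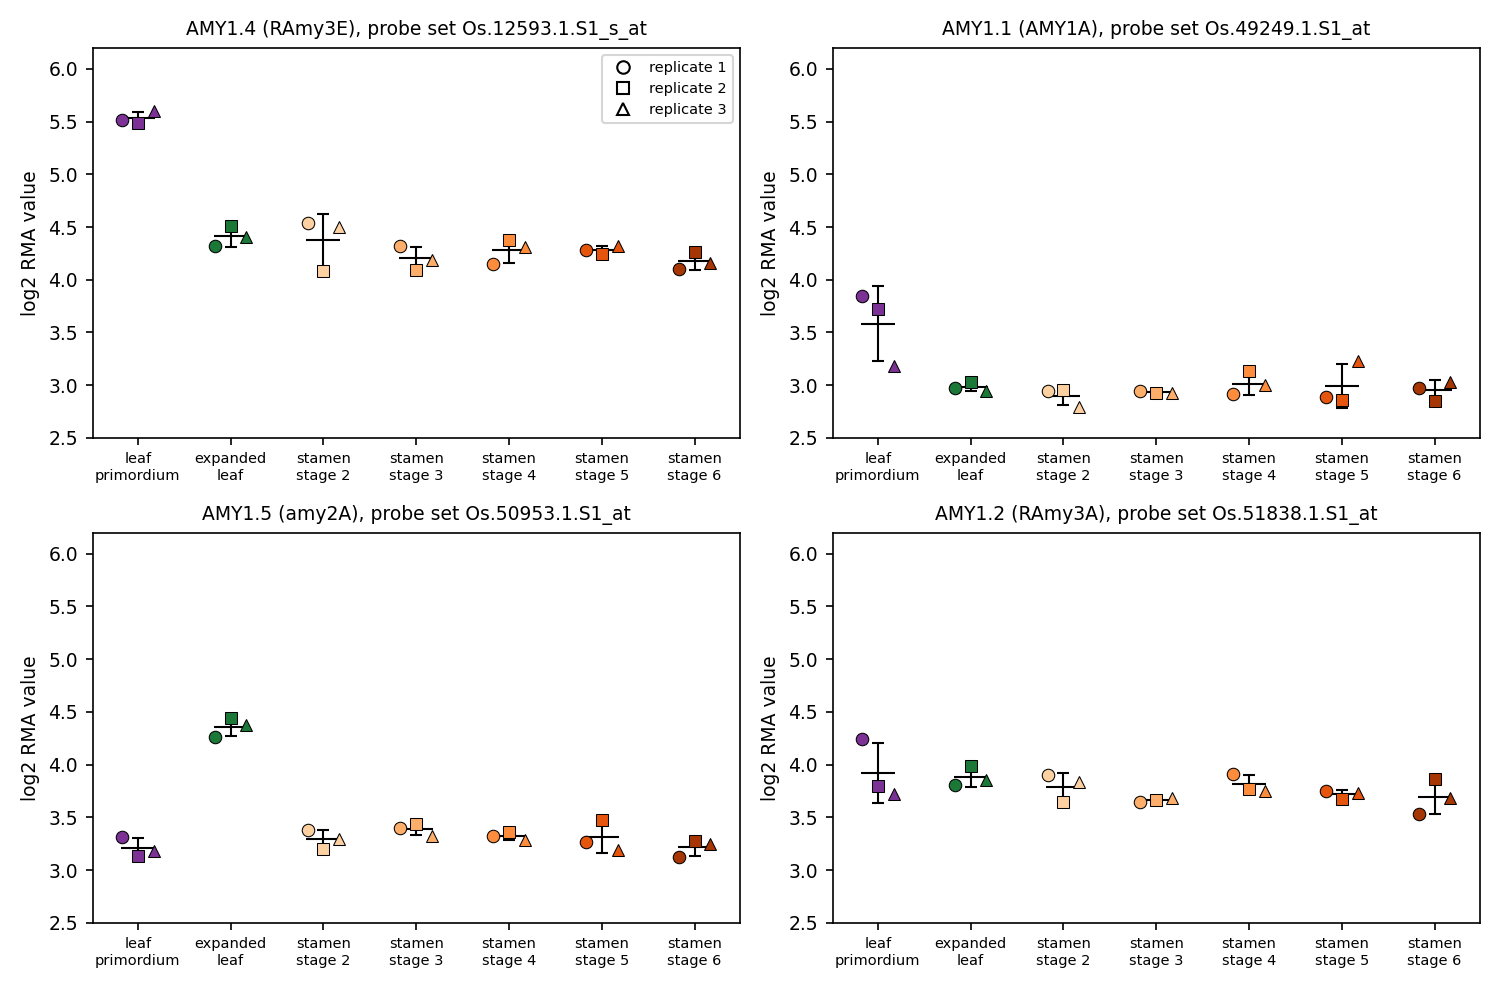
Log2 RMA value of AMY1.4, AMY1.1, AMY1.5 and AMY1.2 in each of the 21 arrays, by group. Points are arrays, long ticks are group means and bars are SD (n = 3). AMY1.4 is highest in leaf primordia (5.49 to 5.60), AMY1.5 is highest in expanded leaves (4.26 to 4.44), and AMY1.2 stays between 3.53 and 4.25 in every group.

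Over the family, 3 of 6 probe sets were called higher in leaf primordia than in the stamen mean, where 6.71% of all probe sets were, and 0 of 6 were called lower, where 7.59% were. The 3 were both AMY1.3 probe sets and AMY1.4, hence 2 genes of 5. The members' median log2 difference was 0.95, beside 0.03 over all probe sets. Against expanded leaves 3 of 6 were called higher in leaf primordia, where 12.8% of all probe sets were, and 1 of 6 lower, AMY1.5, where 9.84% were. The median difference was 0.86 for the members and -0.04 for all probe sets. Both comparisons share the leaf primordium arrays. Between expanded leaves and the stamen mean, 1 of 6 was called higher (AMY1.5) and 1 of 6 lower (AMY1.3), where 9.97% and 13.3% of all probe sets were.

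Stage by stage, 2 of 6 probe sets were called higher in leaf primordia than at stage 2 and 2 of 6 than at stage 3, where 7.59% and 6.31% of all probe sets were. The count was 3 of 6 at stages 4, 5 and 6, where 6.73%, 6.46% and 6.66% of all probe sets were called higher. Only 2 of 6, AMY1.3 by the S1_at probe set and AMY1.4, were called above each of the 5 stages, where 4.16% of all probe sets were. For expanded leaves against stages 2, 3, 4, 5 and 6, the called members in either direction numbered 2, 1, 2, 2 and 1 of 6. Of all probe sets, 22%, 22.8%, 22.9%, 23.9% and 24.6% were called there.

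**Figure D3:**
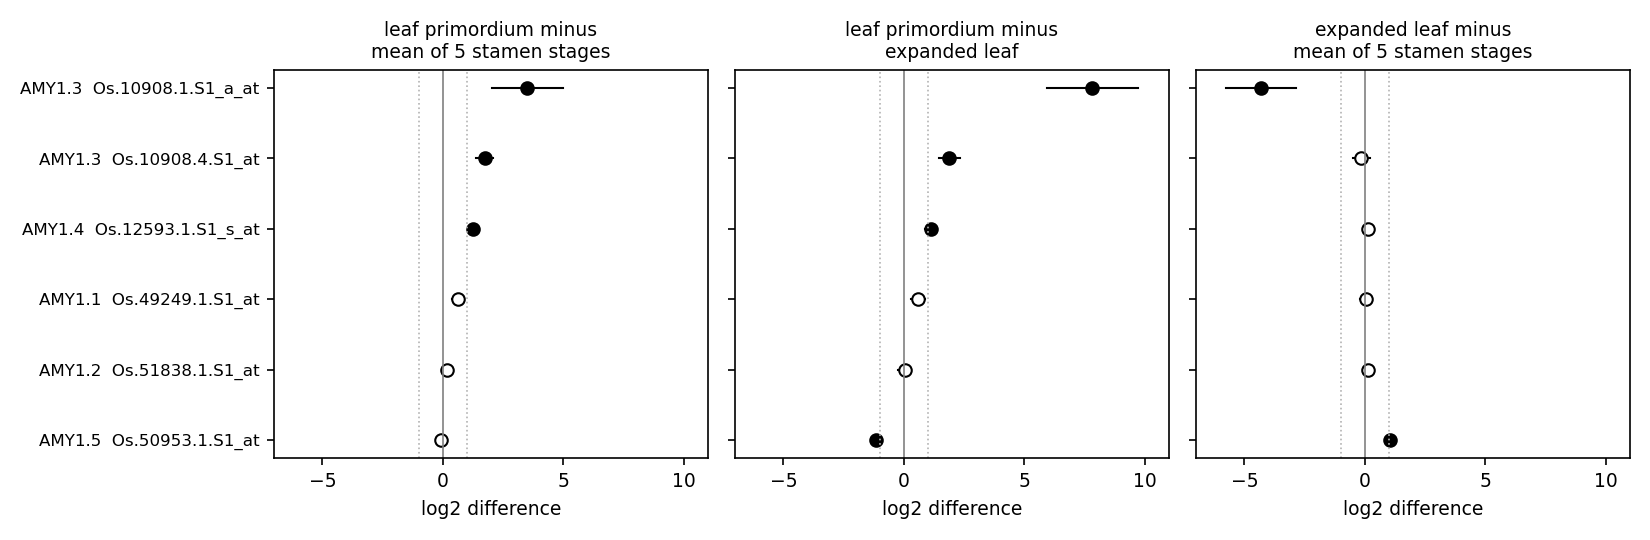
Log2 differences of the 6 alpha-amylase probe sets in leaf primordium minus stamen mean, leaf primordium minus expanded leaf, and expanded leaf minus stamen mean. Points are limma estimates with 95% intervals, filled where called, and dotted lines mark 2-fold. The points of AMY1.3 and AMY1.4 lie to the right in both leaf primordium panels, at 3.51, 1.74 and 1.27 against stamens, and AMY1.5 lies to the left against expanded leaf, at -1.15.

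Markers of the tissue of origin differed between the same groups. The median of the 11 embryo and seed markers was 8.85 to 9.18 in the leaf primordium arrays, 5.15 to 7.12 in the expanded leaf arrays and 6.24 to 7.05 in the stamen arrays. The 5 markers of dividing cells were cyclin, CDK and MCM genes. All 5 were called lower in leaf primordia than in stamens, where 7.59% of all probe sets were. The median of the 5 was 4.90 to 5.53 in leaf primordium arrays and 10.50 to 11.58 in stamen arrays. The part of tissue makeup in the alpha-amylase differences was not tested.

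The genes most like AMY1.3 were sought among 3173 probe sets of named genes, by the root mean square difference from the AMY1.3 S1_a_at probe set over the 7 group means, each profile centred on its own mean. The median of that measure was 2.61 on the log2 scale. The smallest values were 0.884 for RAB16B, a dehydrin, 0.903 for OsYAB3, a YABBY transcription factor, 0.923 for OsTIP3, a vacuolar aquaporin, 1.04 for Agglutinin, a lectin, and 1.05 for RAB21, another dehydrin. RAB16B averaged 12.92 in leaf primordia, 6.08 in expanded leaves, 11.88 at stage 2 and 9.23 at stage 6. Stage 6 was not called against stage 2 for RAB16B or RAB21 (limma adjusted p = 0.133 and 0.105). It was called lower for OsYAB3, OsTIP3 and Agglutinin. Leaf primordia were called above the stamen mean for all named genes but RAB21 (limma adjusted p = 0.0977). OsTIP3 averaged 11.34 in leaf primordia, 4.23 in expanded leaves, 10.50 at stage 2 and 3.96 at stage 6. It was read by an S1_s_at probe set, the type that can match transcripts of more than 1 gene.

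The likeness held for group means and not always for arrays. In expanded leaves AMY1.3 was high in replicate 2, at 7.94, whereas RAB16B was high in replicate 3, at 9.81 against 4.22 in replicates 1 and 2. RAB21 likewise read 11.91 in expanded leaf replicate 3 and 6.62 and 5.50 in replicates 1 and 2. At stage 6, replicate 2 was the highest array for AMY1.3, RAB16B and RAB21 alike, at 8.90, 10.41 and 11.05. Among the alpha-amylases themselves, the same measure against the S1_a_at probe set was 2.18 for the other AMY1.3 probe set, 2.37 for AMY1.4 and 2.84 for AMY1.5.

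**Figure D4:**
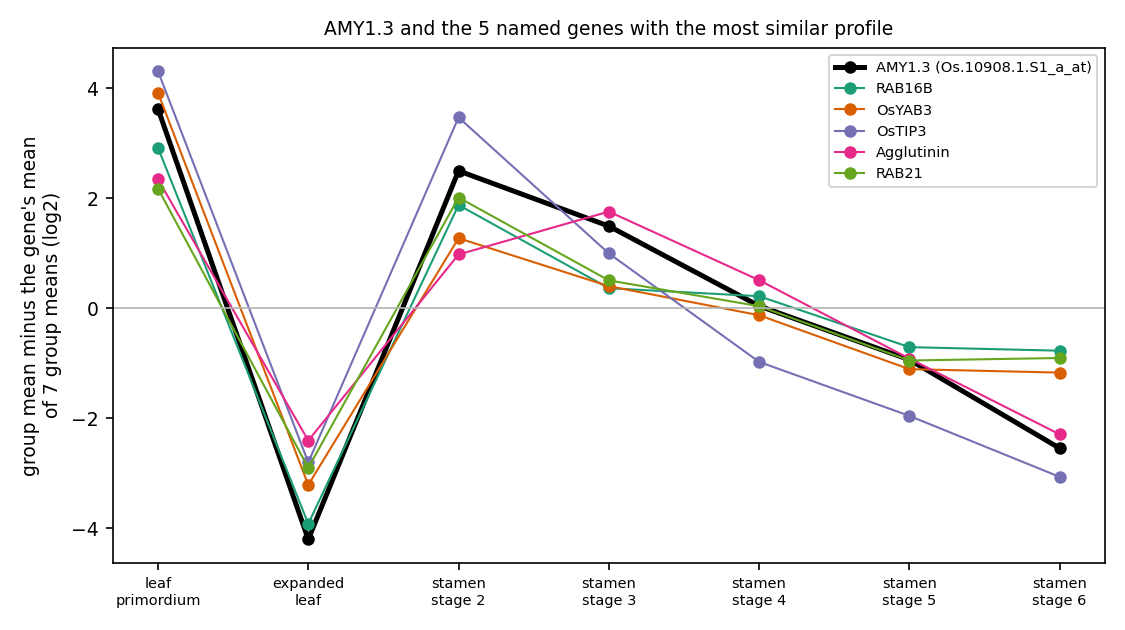
Group means of AMY1.3 (S1_a_at probe set, thick line) and of the 5 named genes with the most similar profile, each minus its own mean of 7 group means, on the log2 scale. All 6 are highest in leaf primordia, and all but OsTIP3 are lowest in expanded leaves.

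Genes around alpha-amylase in seed metabolism were described from 7 lists, with 1 probe set for each gene. Among 8 measured regulators of alpha-amylase transcription, 1 was called higher in leaf primordia than in stamens and 3 lower, where 6.71% and 7.59% of all probe sets were. Those shares apply to each list below in this comparison. MYBS1, which binds the sugar response element of alpha-amylase promoters, averaged 6.74 ± 0.26 in leaf primordia and 5.31 ± 0.36 in stamens (SD, n = 3 and 15), a log2 difference of 1.43 (limma adjusted p = 7.58e-05). GAMYB, the gibberellin-regulated activator, averaged 6.08 ± 0.74 in leaf primordia and 8.25 ± 1.20 in stamens, a difference of -2.17 (limma adjusted p = 1.61e-06). WRKY71, a repressor of gibberellin signalling in aleurone cells, differed by -1.15 and MYBS2 by -1.08. The kinase gene SNRK1A averaged 11.63 in leaf primordia and 11.30 in stamens, a difference of 0.33 that missed the 2-fold threshold.

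Within stamens GAMYB and the S1_a_at probe set of AMY1.3 ran in opposite directions. The S1_at probe set of AMY1.3 differed by -0.37 between stages 6 and 2 and was not called. GAMYB averaged 6.71, 7.68, 7.87, 9.07 and 9.93 at stages 2 to 6, and was 3.22 higher at stage 6 than at stage 2 by limma. Of all 57258 probe sets, 2521 were called higher at stage 6 than at stage 2 and 1984 (3.47%) lower. Of the 11 measured gibberellin genes, 2 were called higher at stage 6 than at stage 2 and 1 lower. They are named after their values had been seen: SLRL1 (1.33) and SPY (1.19), both repressors in gibberellin signalling, and GA20OX3 (-2.96), an enzyme of gibberellin synthesis. The other 6 measured regulators besides GAMYB and MYBS1 had stage 6 minus stage 2 differences between -0.72 and 0.17, and MYBS1 had -0.49. None of these 7 was called. For the list genes no fit with the covariate is given, so the part of RNA integrity in their stage differences was not tested. GAMYB was read by an x_at probe set, whose specificity was not tested.

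Against expanded leaves, 1 of the 8 regulators was called higher in leaf primordia and 4 lower, where 12.8% and 9.84% of all probe sets were. The genes so counted are named after their values had been seen. SNRK1B was higher by 1.21, while MYBS2 differed by -4.07, MYBS1 by -2.86, GAMYB by -1.46 and MYBS3 by -1.25. MYBS1 was thus above stamens and below expanded leaves in leaf primordia. Against stamens, 6.71% of all probe sets were called higher in leaf primordia and 7.59% lower. Of 11 measured genes of gibberellin synthesis and signalling, 3 were higher in leaf primordia than in stamens and 1 lower. They were SLRL1, a DELLA-related repressor (1.32), KS1, an early synthesis enzyme (1.05), and GA20OX3 (1.01), and KO2, which acts after KS1 (-1.23). KS1 was read by an S1_s_at probe set, the type that can match transcripts of more than 1 gene. KO2 was read by an x_at probe set, whose specificity was not tested.

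Of 7 measured enzymes of starch metabolism, 1 was called against stamens. Of 3 measured genes of other starch breakdown steps, none was called against stamens. Of 23 symbols listed for these steps, 19 were not in the annotation, among them every beta-amylase, pullulanase and phosphorylase symbol. Those enzymes have no value here. Against expanded leaves DPE1, a disproportionating enzyme, was called higher in leaf primordia, by 1.98, and none was called lower. Of all probe sets, 12.8% were called higher there and 9.84% lower. Of 4 measured starch synthesis genes, the starch synthase gene SSI was higher in leaf primordia, with 10.42 against 9.02 in stamens (log2 difference 1.40, limma adjusted p = 0.00064). Against expanded leaves, 1 of these 4 was called higher in leaf primordia and 2 lower, beside the same 12.8% and 9.84%. The 3 measured seed alpha-amylase/trypsin inhibitor genes had differences between -0.09 and 0.18 against stamens, and none was called.

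Of 18 measured genes for sucrose transport and cleavage, 3 were called higher in leaf primordia than in stamens and 2 lower. The shares over all probe sets were 6.71% and 7.59%. The 3 higher genes were sucrose synthase genes. SUS5 averaged 7.29 in leaf primordia and 3.30 in stamens (log2 difference 3.99, limma adjusted p = 4.07e-12), SUS3 differed by 1.93 and SUS4 by 1.85. The 2 lower genes were the cell wall invertase genes CIN7 (-2.15) and CIN4 (-1.19), the second named after its value had been seen. Against expanded leaves, 7 of the 18 were called higher in leaf primordia and 5 lower, where 12.8% and 9.84% of all probe sets were, with SUS1, picked after its value had been seen, higher by 6.88.

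Of 4 measured genes of alcoholic fermentation, 2 were called higher in leaf primordia than in stamens, where 6.71% of all probe sets were. PDC1, a pyruvate decarboxylase gene, averaged 13.38 in leaf primordia, 5.32 in expanded leaves, 11.59 at stage 4 and 7.76 at stage 6. Its log2 difference was 3.25 against the stamen mean (limma adjusted p = 1.08e-05) and 8.05 against expanded leaves (limma adjusted p = 2.27e-09). ADH2, an alcohol dehydrogenase gene, was 1.85 above the stamen mean. The median log2 difference between leaf primordia and stamens was 1.21 over this list, 0.14 over the sucrose list, -0.03 over the gibberellin list and -0.19 over the regulators, beside 0.03 over all probe sets.

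**Figure D5:**
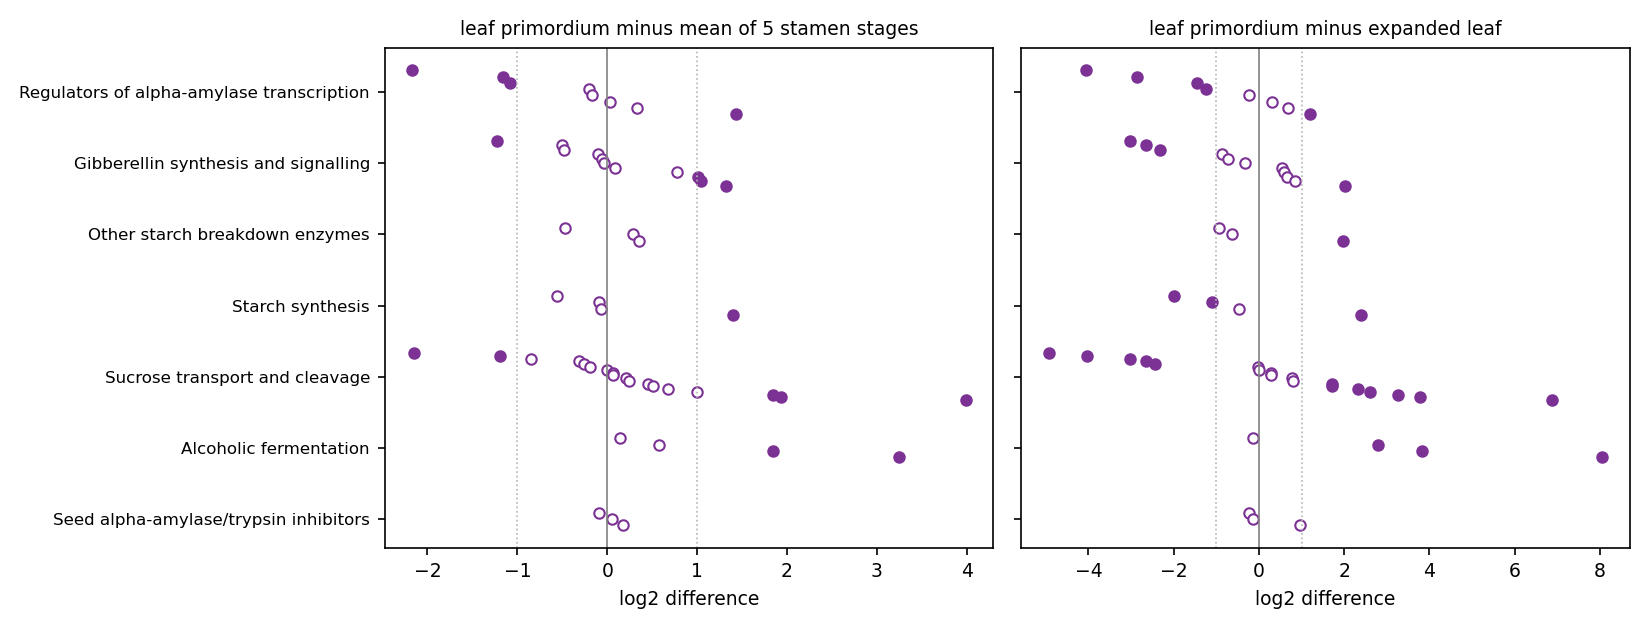
Log2 differences of genes in 7 pathway lists for leaf primordium minus stamen mean (left) and leaf primordium minus expanded leaf (right). Each point is a gene, filled where called by limma, and dotted lines mark 2-fold. Against stamens the farthest points to the right are SUS5 (3.99) and PDC1 (3.25), and the farthest to the left is GAMYB (-2.17).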

How the data were processed

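The authors deposited 1 table of log2 values, 1 per probe set and array, made with RMA per the submitters' processing notes. RMA corrects background, equalises array distributions and summarises probes. Total RNA (50 to 300 ng) passed through 2 rounds of amplification before labelling, per the labels, which shortens transcripts toward the 3′ end.

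Of 57381 probe sets, 123 controls were left out and 57258 were tested. The annotation table paired 22436 of these with a single gene, left 34727 without one and gave 95 more than one gene, and no alpha-amylase probe set carried several genes. It was used for names and neighbour order, and positions on the array's build are not given here. Symbols carried by several genes were left out of the gene lists, and a listed gene was read by its probe set with the highest mean. Listed symbols not in the annotation have no value. They were 19 of 23 for other starch breakdown, 19 of 23 for starch synthesis and 10 of 19 for regulators. They were 11 of 24 for gibberellin, 6 of 12 for inhibitors, 3 of 28 for sucrose and 1 of 7 for fermentation.

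One limma model (limma 3.58.1, R 4.3.3) with 7 group means was fitted to all 21 arrays, and calls used a two-sided Benjamini-Hochberg adjusted p under 0.05 and a 2-fold difference. The fit was tested on simulated data. The precision is limited by 3 arrays per group. Members and gene lists were chosen with earlier results of these data known. All alpha-amylase probe sets are reported, with the 5 named genes most like AMY1.3 and, in each list, up to 4 called genes with the largest difference between leaf primordium and stamens. Other list genes and markers named were chosen after their values had been seen. Steps between neighbouring stages and expanded leaf against single stages were added after the values had been seen. Alternatives were 11 other settings and each of 21 arrays left out in turn.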

Additional observations from a re-analysis of the deposited data

How the results depend on the processing

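The counts of called alpha-amylase probe sets were 3 for leaf primordium against the stamen mean, 4 for leaf primordium against expanded leaf, 2 for expanded leaf against the stamen mean, 2 for leaf primordium against each stage, 1 for stage 6 against stage 2 and 1 over the 5 stages. With only probe sets above the median mean the first 4 counts were 1, 1, 1 and 0, since only 1 member was then tested. A further quantile normalization gave 1 for expanded leaf against the stamen mean, and averaging probe sets by gene gave 1 for leaf primordium against each stage. Other settings raised counts. Without a fold threshold AMY1.1 was also called higher in leaf primordia than in the stamen mean, in expanded leaves and at each stage. Fitted on the compared groups alone, leaf primordia were also called above stages 2 and 3 for AMY1.3 (S1_a_at), hence above each stage. Leaving out each array in turn kept every count, at 3, 4, 2, 2, 1 and 1. Over 84 single probe set results and 32 settings, 2513 of 2534 values kept their call, 14 gained one and 7 lost one, and no called result changed sign. The sign of uncalled results turned in 28 values, of which 1 exceeded 0.3 in size, AMY1.3 in leaf primordium minus stage 2 with the 3′ to 5′ covariate (-1.12). Calls changed in AMY1.3 (S1_a_at), AMY1.5 and AMY1.1, and in no other member. Over all probe sets, the 3′ to 5′ covariate called 1226 lower at stage 6 than at stage 2 and 2124 changed over the stages, against 1984 and 4139 without it. The stage test called 2567 at an adjusted p under 0.01 and 6408 with array weights. Without a fold threshold, 9101 were higher and 9100 lower in leaf primordia than in stamens, against 3841 and 4348. The labels do not tie replicate numbers across groups: deviations of same-numbered arrays correlated at 0.013 on average (63 pairs, -0.43 to 0.48), so the numbers share no pairing seen here. With the replicate number as a block the counts stayed at 3, 4, 2, 2, 1 and 1 and no call changed. Signals near the low end of the range, without a detection call, limit AMY1.1, AMY1.2 and AMY1.5 in all groups, AMY1.4 and AMY1.3 (S1_at) outside leaf primordia, and AMY1.3 (S1_a_at) in expanded leaf replicates 1 and 3. Folds against those groups rest on such values.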
